A study of Homo sapiens with 4 samples.

Results

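The transporter genes described here are the protein-coding members of 9 solute carrier (SLC) families that carry amino acids, sugars, monocarboxylates and related small solutes across membranes. They were taken by symbol from the expression table of MHCC-97H cells as every numbered member of SLC1, SLC2, SLC5, SLC6, SLC7, SLC16, SLC36, SLC38 and SLC43, leaving out SLC7A5 and SLC7A11, which are given only beside their partners. This rule found 89 genes among 33478 in the table, of which 18833 are protein-coding. The rule uses symbols and no measured value, though it was set with earlier results of these data known. Family names follow sequence, so a few members carry other solutes, such as vitamins, creatine, taurine, myo-inositol or nucleobases.

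MHCC-97H is a human hepatocellular carcinoma line of high metastatic capacity. Its cells carried either a short hairpin RNA (shRNA) against UCK2 or a control shRNA, with 2 libraries of each kind, and RNA was sequenced after preparation with a TruSeq RNA kit. UCK2 encodes uridine-cytidine kinase 2, which phosphorylates uridine and cytidine in pyrimidine salvage. Both groups share the cell line and the presence of an shRNA, and the labels give no further treatment or time. Both UCK2 shRNA titles carry the letter B, which the labels do not explain, and if it stands for 1 hairpin, off-target effects of that hairpin and loss of UCK2 cannot be told apart. Nothing in the labels says that a group's libraries were separate cultures, so the p-values cover library-to-library spread, which may be technical.

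Cells take up most amino acids by exchangers and by sodium-driven carriers, and the inward gradient of sodium or protons lets some of these concentrate their solute. The glucose carriers of SLC2 work by facilitated diffusion, and some carriers of SLC16, among them SLC16A1 and SLC16A3, move lactate and pyruvate together with a proton. Hepatocytes are known for a glucose carrier and amino acid carriers of their own, while fast-growing tumour cells are known for SLC2A1, SLC1A5 and SLC16A3. Starvation for amino acids raises several carriers through the transcription factor ATF4, and low oxygen raises SLC2A1 and SLC16A3 through hypoxia-inducible factor (HIF).

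UCK2 itself stood at 121 and 67.8 TPM in UCK2 shRNA replicates 1 and 2, against 136 and 93.6 TPM in control replicates 1 and 2. TPM is a transcript abundance corrected for gene length and expressed relative to a fixed total per library. UCK2 shRNA replicate 1 lay between the 2 control libraries, so the groups overlapped in the gene that the hairpin targets. The log2 difference, UCK2 shRNA minus control as in every difference below, was -0.31 (95% interval -1.02 to 0.39, limma adjusted p = 0.640). After scaling of the libraries it was -0.08 (95% interval -0.72 to 0.57, limma adjusted p = 0.990). A lower UCK2 level beyond the spread of the libraries was thus not detected, and each group below is named as it was labelled. The labels also hold a description that names MHCC-98H for control replicate 2 and one that names UCK3 for UCK2 shRNA replicate 2.

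The TPM values of the genes used here summed to 676811 and 643063 in the libraries labelled UCK2 shRNA, against 850379 and 850534 in the control libraries, so genes not analysed here took 32.3% and 35.7% of that total, against 15.0% and 14.9%. Of the 14038 genes averaging at least 1 TPM, which were the ones tested, the median log2 difference was -0.22 as deposited and -0.01 after median-ratio scaling, a scaling that divides each library by the median ratio of its genes to their geometric mean. Both scales are given below, and shares within a family need neither. Beyond that scaling, the part of the genes not analysed in these differences was not tested. The liver markers fixed for the cell type were summed at 2645 and 2297 TPM in UCK2 shRNA libraries, against 3002 and 4089 TPM in control libraries, mostly as KRT8, and ALB was at 20.1 and 18.6, against 29.5 and 25.8 TPM, and their part in the results below was not tested. The labels' extraction protocol mentions retinas, and 9 retina markers summed to 2.89 and 4.22 TPM, against 3.41 and 4.49 TPM. Blood cell markers summed to 48.5 and 50.6 TPM in UCK2 shRNA libraries, against 51.0 and 59.5 TPM, nearly all of it CD68, and endothelial markers summed to 21.3 and 22.5, against 25.8 and 21.3 TPM, nearly all of it PECAM1. Fibroblast and stellate markers summed to 2.27 and 4.53 TPM, against 1.65 and 1.21 TPM.

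Of the 89 transporter genes, 42 averaged at least 1 TPM over the 4 libraries and entered the test, and 47 did not. Among the 47, no library exceeded 1.37 TPM, and SLC1A3, SLC5A7, SLC6A3 and SLC6A19 were listed at 0 in every library. The 42 tested genes held between 99.2% and 99.4% of the summed TPM of all 89 in each library. They split into 5 genes averaging at least 100 TPM, 20 genes between 10 and 100 TPM and 17 genes between 1 and 10 TPM. By family, the test took in 3 of 7 genes of SLC1, 5 of 13 of SLC2, 2 of 9 of SLC5, 7 of 19 of SLC6, 5 of 10 of SLC7, 7 of 13 of SLC16, 2 of 4 of SLC36, 8 of 11 of SLC38 and all 3 of SLC43.

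All 89 genes together summed to 1338 and 1434 TPM in UCK2 shRNA libraries, against 1751 and 1567 TPM in control libraries. As a share of the TPM of the table, that was 0.198% and 0.223%, against 0.206% and 0.184%, so the groups overlapped once the table's own total was used. SLC1A5, SLC6A8, SLC16A3, SLC38A2 and SLC16A5 were the 5 most abundant, and together they held 54.0% and 54.5% of the transporter TPM in UCK2 shRNA libraries, against 52.7% and 55.7% in control libraries. SLC1A5, an exchanger of glutamine and other neutral amino acids, and SLC6A8, the creatine carrier, were the highest 2 in every library.

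**Figure D1:**
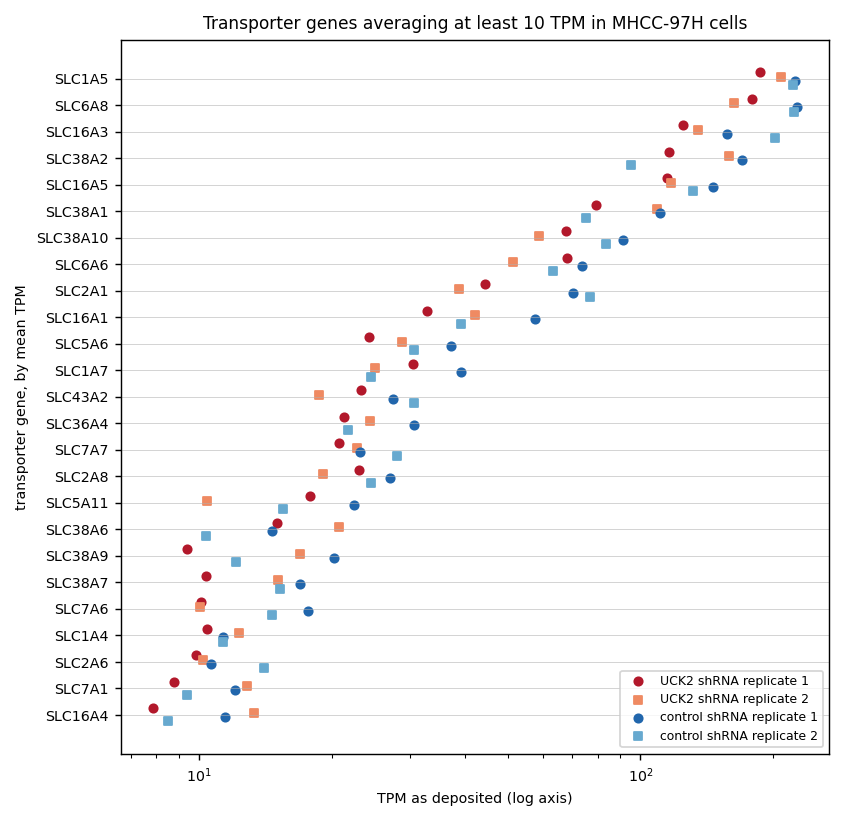
TPM as deposited, on a log axis, of the 25 transporter genes averaging at least 10 TPM, with UCK2 shRNA libraries in red shades and control libraries in blue shades. Points of SLC2A1 and SLC7A6 are among those that separate by group with UCK2 shRNA below control, as 44.4% of all genes tested do on this scale. Points of SLC38A2 and SLC38A1 interleave.

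No transporter gene passed an adjusted p of 0.05 in limma on the deposited values, 0 of 42, beside 0% of the 14038 genes. After scaling, 0 of 42 passed as well, beside 0.0641% of all genes. The smallest adjusted p among the transporter genes was 0.294 as deposited and 0.772 after scaling. At an unadjusted p under 0.05, 0 of 42 were higher, beside 1.38% of all genes, and 5 were lower, beside 14.0% of all genes. The 5 were SLC2A1, SLC7A6, SLC38A10, SLC6A8 and SLC16A3, and their share among the 42 was near that of all genes. After scaling, SLC38A6 was the 1 gene higher, beside 3.97% of all genes, and SLC2A1 the 1 gene lower, beside 1.42% of all genes.

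Groups that did not overlap were counted apart from any p. On the deposited scale, both UCK2 shRNA libraries lay above both control libraries for 1 gene, SLC38A6, beside 5.46% of all genes, and below them for 19, beside 44.4% of all genes. After scaling, 3 genes lay above, SLC38A6, SLC1A4 and SLC16A6, beside 16.0% of all genes. After scaling, 6 genes lay below, SLC2A1, SLC2A10, SLC7A6, SLC16A13, SLC38A10 and SLC38A5, beside 15.5% of all genes, and SLC16A6, SLC2A10, SLC16A13 and SLC38A5 are named here after their values were seen. The remaining 33 overlapped. The median log2 difference of the 42 was -0.22 as deposited, the same as over all genes, and 0.01 after scaling, against -0.01 over all genes. As deposited, 29 of the 42 differences were below 0, beside 10489 of all 14038 genes. After scaling 21 were below 0 and 21 above, beside 7126 and 6912 of all genes. Differences exceeded their own standard error in 22 genes as deposited and in 12 after scaling. Scaling turned 8 genes from below 0 to above it. Neither of these counts was taken over all genes.

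**Figure D2:**
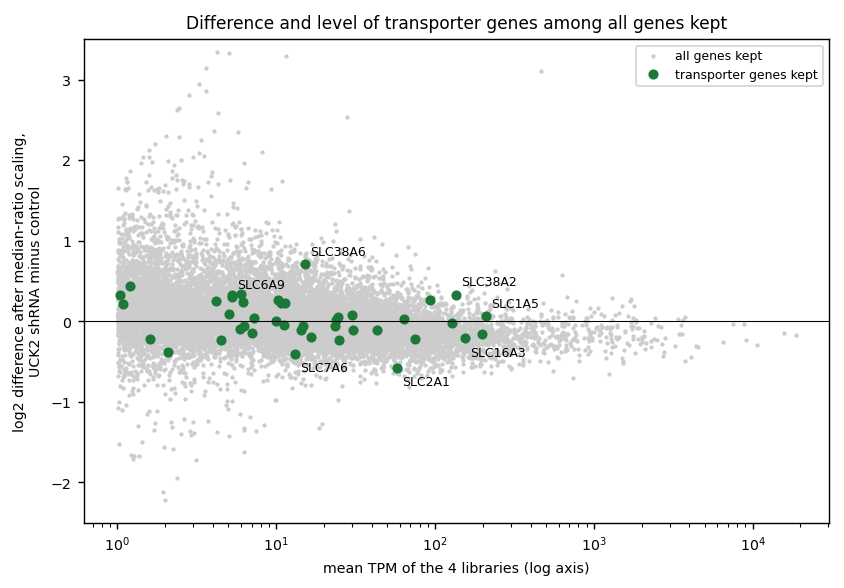
Log2 difference after median-ratio scaling, UCK2 shRNA minus control, against the mean TPM of the 4 libraries on a log axis, for all 14038 genes tested in grey and the 42 transporter genes in green. The transporter genes lie within the grey cloud, from -0.58 for SLC2A1 to 0.71 for SLC38A6, and 1 grey gene lies outside the plotted range.

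Among the sugar carriers, SLC2A1, which encodes the glucose carrier GLUT1, was the most abundant and had the largest difference of any transporter gene tested on the deposited scale. SLC2A1 (chr1:42925381-42958859, hg38, minus strand) stood at 44.4 and 38.7 TPM in UCK2 shRNA libraries, against 70.2 and 77.0 TPM in control libraries. Both UCK2 shRNA libraries were below both control libraries, by more than the gap between the 2 libraries of either group. The means were 41.5 ± 3.99 TPM in UCK2 shRNA libraries and 73.6 ± 4.75 TPM in control libraries (SD, n = 2 each). This gave a log2 difference of -0.81 (SE 0.17, 95% interval -1.22 to -0.41) with a limma unadjusted p of 0.00202 and an adjusted p of 0.294, so it did not pass the threshold over all genes. After scaling, SLC2A1 stood at 48.5 and 41.9 TPM in UCK2 shRNA libraries, against 59.4 and 77.0 TPM in control libraries, still apart. The scaled log2 difference was -0.58 (SE 0.21, 95% interval -1.06 to -0.09, limma adjusted p = 0.844). Without control replicate 1, the deposited difference was -0.88 and the limma adjusted p was 0.04995. Such a fit leaves 1 library in a group, assumed to vary like the other group, so it is given as a value and not as a call. Without control replicate 2, the scaled difference was -0.39 with a limma unadjusted p of 0.115, and without UCK2 shRNA replicate 1 or 2 that p was 0.0745 and 0.180.

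The promoters of SLC2A1, of the amino acid exchanger SLC7A6 and of SLC38A6 are shown because these 3 genes had the largest scaled differences among transporter genes averaging at least 10 TPM. Each line is the 250 bases before the RefSeq start, on the strand of the gene (GRCh38.p14). They are SLC2A1 at chr1:42958869-42959118 on the minus strand, SLC7A6 at chr16:68264276-68264525 on the plus strand and SLC38A6 at chr14:60980995-60981244 on the plus strand. For SLC38A6 the RefSeq start lay 131 bases inside the gene span of the expression table, so much of its window is within that span. That offset was 10 bases for SLC7A6 and -9 bases for SLC2A1. Capitals mark the GC box GGGCGG and the hypoxia response cores ACGTG or GCGTG, each searched on both strands.
SLC2A1 promoter: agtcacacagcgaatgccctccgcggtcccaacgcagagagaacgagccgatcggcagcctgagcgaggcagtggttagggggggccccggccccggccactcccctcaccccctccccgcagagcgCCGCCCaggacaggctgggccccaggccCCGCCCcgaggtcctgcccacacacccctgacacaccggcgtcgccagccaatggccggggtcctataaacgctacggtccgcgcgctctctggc
SLC7A6 promoter: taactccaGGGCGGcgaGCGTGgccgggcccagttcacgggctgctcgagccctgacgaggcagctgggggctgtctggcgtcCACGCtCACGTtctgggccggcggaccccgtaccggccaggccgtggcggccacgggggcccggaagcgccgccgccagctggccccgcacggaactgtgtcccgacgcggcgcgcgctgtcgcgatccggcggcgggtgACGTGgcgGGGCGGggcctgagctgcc
SLC38A6 promoter: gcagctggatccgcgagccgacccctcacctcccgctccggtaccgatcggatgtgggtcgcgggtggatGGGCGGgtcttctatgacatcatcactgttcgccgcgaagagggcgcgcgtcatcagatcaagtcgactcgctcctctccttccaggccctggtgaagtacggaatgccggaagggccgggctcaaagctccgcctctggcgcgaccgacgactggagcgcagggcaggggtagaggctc
The SLC2A1 window held 2 GC boxes and 0 hypoxia cores, and 72.4% of its bases were G or C. The SLC7A6 window held 2 GC boxes and 4 hypoxia cores at 77.6% G or C, and the SLC38A6 window held 1 GC box and 0 hypoxia cores at 66.0%. Over the 34 tested transporter genes with such a window, 20 held a GC box, beside 62.5% of the windows of all genes tested and 42.6% of all 35116 windows. A hypoxia core was in 16 of the 34, beside 54.8% and 43.2% of those windows. The E box CACGTG, which holds the core ACGTG, was in 5 of the 34, beside 8.20% and 6.34%. The amino acid response letters TGATGNAA were in 0 of the 34, beside 1.73% and 3.14%. These matches describe the letters of a window and nothing about binding.

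The other SLC2 genes were lower in level and closer between groups. SLC2A8, which encodes the mainly intracellular carrier GLUT8, stood at 23.0 and 19.0 TPM in UCK2 shRNA libraries, against 27.1 and 24.5 TPM in control libraries. The groups did not overlap as deposited, and the log2 difference was -0.29 as deposited and -0.06 after scaling (limma adjusted p = 0.513 as deposited). SLC2A6, which encodes GLUT6, stood at 9.83 and 10.2 TPM, against 10.6 and 14.0 TPM, with log2 differences of -0.26 and, scaled, -0.04. SLC2A13, the proton-coupled myo-inositol carrier, stood at 5.44 and 5.23 TPM in UCK2 shRNA libraries, against 7.02 and 3.28 TPM in control libraries. Its control libraries lay on either side of the UCK2 shRNA libraries. SLC2A3, which encodes the neuronal carrier GLUT3 and has the near copy SLC2A14 with which it can share reads, averaged under 1 TPM, at 0.788 and 1.13 TPM, against 0.960 and 0.837 TPM. SLC2A2, the hepatocyte carrier GLUT2, reached at most 0.068 TPM, and the urate carrier SLC2A9 at most 0.236 TPM.

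Within its family, SLC2A1 held 51.5% and 49.9% of the SLC2 TPM in UCK2 shRNA libraries, against 58.6% and 62.7% in control libraries. SLC2A8 held 26.8% and 24.5%, against 22.6% and 19.98%. These shares do not depend on the scaling of a library, and for both genes the groups did not overlap. As SLC2A1 is part of the total, its lower values also raise the share of SLC2A8. After scaling, the values of SLC2A8 itself overlapped between groups. The ratio of SLC2A1 to SLC2A8 was 1.92 and 2.03 in UCK2 shRNA libraries, against 2.59 and 3.14 in control libraries. The smallest p that an exact permutation test can give with 2 against 2 libraries is 0.333, and shares and ratios are given as descriptions with no test. How often shares or ratios do not overlap over all genes was not counted, and those with SLC2A1 reuse its values above. The whole family summed to 86.1 and 77.6 TPM in UCK2 shRNA libraries, against 119.9 and 123 TPM in control libraries, and its scaled mean ratio of 0.794 was the lowest of the 9 families, whose ratios ran up to 1.13 for SLC38. Nearly all of that gap was SLC2A1 itself. Scaled family means were 89.0 TPM in UCK2 shRNA and 112 TPM in control libraries, and those of SLC2A1 were 45.2 and 68.2 TPM.

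**Figure D3:**
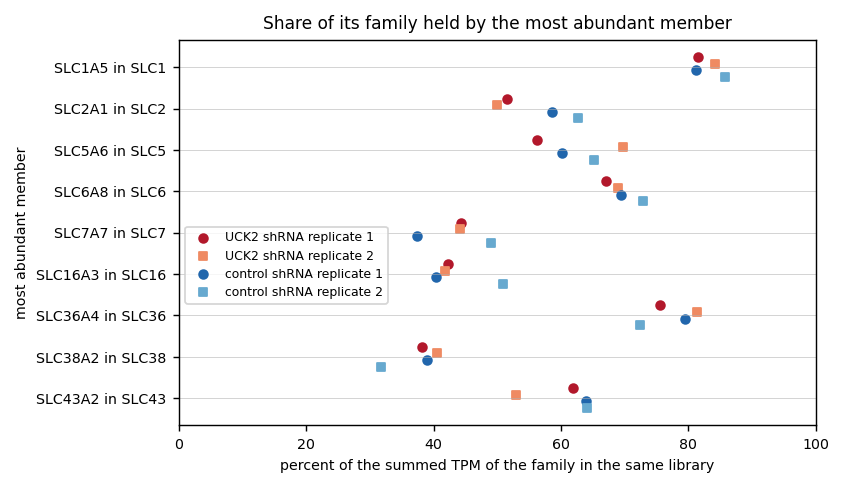
Percent of the summed TPM of a family held by its most abundant member in each library, with UCK2 shRNA libraries in red shades and control libraries in blue shades. SLC2A1 lies at 51.5% and 49.9% in UCK2 shRNA libraries, against 58.6% and 62.7% in control libraries, and SLC1A5 lies above 80% of SLC1 in every library.

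The sodium-coupled family SLC5 was represented by the vitamin carrier SLC5A6 and the myo-inositol carrier SLC5A11. SLC5A6, which takes up biotin and pantothenate, stood at 24.3 and 28.8 TPM in UCK2 shRNA libraries, against 37.1 and 30.7 TPM in control libraries. The groups did not overlap as deposited, with a log2 difference of -0.34 (SE 0.20, 95% interval -0.81 to 0.13, limma adjusted p = 0.440), and -0.11 after scaling. SLC5A11 stood at 17.8 and 10.4 TPM in UCK2 shRNA libraries, against 22.4 and 15.5 TPM in control libraries, and its groups overlapped. The share of SLC5A6 in its family was 56.2% and 69.7% in UCK2 shRNA libraries, against 60.2% and 65.2%, with the control libraries between the others.

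In SLC16, the genes SLC16A3, SLC16A5 and SLC16A1 were all well above the other members. SLC16A3 (chr17:82228397-82261129, hg38, plus strand) encodes MCT4, known for lactate export from glycolytic cells, and stood at 125 and 135 TPM in UCK2 shRNA libraries, against 157 and 202 TPM in control libraries. Both UCK2 shRNA libraries were lower, and control replicate 2 stood highest. The means were 130.0 ± 7.06 TPM in UCK2 shRNA libraries and 179 ± 31.6 TPM in control libraries (SD, n = 2 each). On the log2 scale the difference was -0.45 (SE 0.18, 95% interval -0.87 to -0.04) with a limma unadjusted p of 0.0368 and an adjusted p of 0.305. After scaling it was -0.21 (95% interval -0.75 to 0.33, limma adjusted p = 0.955), with 137 and 146 TPM in UCK2 shRNA libraries, between 133 and 202 TPM in control libraries, so the groups overlapped. Without control replicate 2, the difference was -0.27 as deposited (limma unadjusted p = 0.231) and 0.09 after scaling. SLC16A3 overlaps CSNK1D on the opposite strand over 22107 bases, and CSNK1D stood at 156 and 145 TPM, against 189 and 209.6 TPM. The overlap is of whole gene spans, introns included, and strand-specific counting is not stated in the sources used here. Whether reads of these genes mix in the values is therefore not known.

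SLC16A5, which encodes MCT6, stood at 115 and 117 TPM in UCK2 shRNA libraries, against 146 and 132 TPM in control libraries. The groups were apart as deposited, with a log2 difference of -0.26, and -0.02 after scaling (limma adjusted p = 0.445 as deposited). SLC16A1, which encodes MCT1 and can carry lactate inward or outward, stood at 32.9 and 42.1 TPM in UCK2 shRNA libraries, against 57.5 and 39.2 TPM in control libraries. Its groups overlapped, with a log2 difference of -0.34 and, scaled, -0.11 (95% interval -0.60 to 0.38). The ratio of SLC16A3 to SLC16A1 was 3.81 and 3.20 in UCK2 shRNA libraries, against 2.73 and 5.14 in control libraries, so the control libraries spanned the others. SLC16A3 exceeded SLC16A1 in every library. Shares of the family overlapped for SLC16A3, at 42.3% and 41.8% in UCK2 shRNA libraries, against 40.4% and 50.8% in control libraries.

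Basigin (BSG) is the chaperone that brings MCT1 and MCT4 to the cell surface, and it was listed among the partners of the carriers. BSG stood at 279 and 249.7 TPM in UCK2 shRNA libraries, against 389.5 and 438 TPM in control libraries. Both UCK2 shRNA libraries were below both control libraries on either scale. On the log2 scale BSG differed by -0.64 (SE 0.15, 95% interval -1.01 to -0.28) with a limma unadjusted p of 0.00386 and an adjusted p of 0.294, and after scaling it was -0.40 (95% interval -0.92 to 0.11). EMB, the partner of SLC16A7, was listed at 0 in every library.

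Among the exchangers of SLC1, SLC1A5 had the highest mean TPM of all 89 genes, though SLC6A8 was slightly above it in both control libraries. SLC1A5 (chr19:46774883-46788594, hg38, minus strand) encodes ASCT2, which exchanges glutamine and other neutral amino acids, and stood at 187 and 208 TPM in UCK2 shRNA libraries, against 224 and 222 TPM in control libraries. Its log2 difference was -0.17 (SE 0.15, 95% interval -0.52 to 0.18, limma adjusted p = 0.596) as deposited and 0.07 (95% interval -0.40 to 0.53) after scaling. SLC1A5 was lower in both UCK2 shRNA libraries only before scaling, and it held 81.5% and 84.2% of the SLC1 TPM in them, against 81.2% and 85.8% in control libraries. SLC1A4, which encodes the related exchanger ASCT1, stood at 10.4 and 12.3 TPM, against 11.3 and 11.3 TPM. After scaling the SLC1A4 values were 11.4 and 13.3 TPM in UCK2 shRNA libraries, against 9.57 and 11.3 TPM in control libraries, which did not overlap by a narrow gap (log2 difference 0.22, 95% interval -0.28 to 0.73). SLC1A7, known as a glutamate carrier of the retina, stood at 30.5 and 25.0 TPM, against 39.1 and 24.5 TPM. Its groups overlapped.

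The sodium-driven carriers of SLC38 take up glutamine, alanine and other small neutral amino acids, and SLC38A2 and SLC38A1 (SNAT2 and SNAT1) were the most abundant. SLC38A2 (chr12:46358189-46372867, hg38, minus strand) stood at 116 and 159 TPM in UCK2 shRNA libraries, against 169.9 and 95.3 TPM in control libraries. The control libraries lay outside both UCK2 shRNA libraries, and the means were 137 ± 30.5 TPM in UCK2 shRNA libraries and 133 ± 52.8 TPM in control libraries (SD, n = 2 each). SLC38A2 had a log2 difference of 0.09 (SE 0.29, 95% interval -0.59 to 0.77, limma adjusted p = 0.908), or 0.33 (95% interval -0.25 to 0.92) once scaled. SLC38A1 showed the same order of libraries, at 79.1 and 109 TPM, against 111 and 75.3 TPM, with a log2 difference of 0.03. The ratio of SLC38A2 to SLC38A1 was 1.47 and 1.46 in UCK2 shRNA libraries, against 1.54 and 1.27 in control libraries, so the control libraries spanned the others.

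SLC38A6 was the transporter gene with the highest difference on both scales. SLC38A6 (chr14:60981114-61083733, hg38, plus strand) stood at 15.0 and 20.8 TPM in UCK2 shRNA libraries, against 14.6 and 10.4 TPM in control libraries. UCK2 shRNA replicate 2 stood apart as the highest, while UCK2 shRNA replicate 1 was barely above control replicate 1. SLC38A6 had a log2 difference of 0.49 (SE 0.26, 95% interval -0.14 to 1.11, limma adjusted p = 0.409). Scaled values were 16.4 and 22.4 TPM in UCK2 shRNA libraries, against 12.3 and 10.4 TPM in control libraries, with a log2 difference of 0.71 (SE 0.23, 95% interval 0.18 to 1.24), a limma unadjusted p of 0.0145 and an adjusted p of 0.772. Without UCK2 shRNA replicate 2, the scaled difference was 0.50 with a limma unadjusted p of 0.170, and without control replicate 2 it was 0.60 with 0.0507. SLC38A6 overlaps TRMT5 on the opposite strand over 245 bases.

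SLC38A10, of the same family, was lower in the UCK2 shRNA libraries. It stood at 67.7 and 59.0 TPM in UCK2 shRNA libraries, against 91.2 and 83.4 TPM in control libraries, with no overlap. The means were 63.3 ± 6.15 TPM in UCK2 shRNA libraries and 87.3 ± 5.51 TPM in control libraries (SD, n = 2 each). The log2 difference was -0.46 (SE 0.17, 95% interval -0.85 to -0.07, limma unadjusted p = 0.0276, adjusted p = 0.294), and -0.22 after scaling (95% interval -0.66 to 0.22), where 74.0 and 63.8 TPM in UCK2 shRNA libraries were still below 77.2 and 83.4 TPM in control libraries. Without control replicate 1 the limma unadjusted p of the deposited difference was 0.0928, and without UCK2 shRNA replicate 2 it was 0.127. The ratio of SLC38A6 to SLC38A10 was 0.221 and 0.352 in UCK2 shRNA libraries, against 0.160 and 0.124 in control libraries, a ratio that no scaling changes. As SLC38A6 lay above and SLC38A10 below on both scales, its separation follows from their own values and is no further result. SLC38A9, the lysosomal arginine sensor, is named here after its values were seen, and stood at 9.39 and 16.9 TPM in UCK2 shRNA libraries, against 20.2 and 12.1 TPM in control libraries. Its groups overlapped.

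The light chains of SLC7 pair with the heavy chain SLC3A2 to exchange large neutral and cationic amino acids. SLC7A6 (chr16:68264516-68301823, hg38, plus strand) encodes y+LAT2, which exchanges arginine for glutamine with sodium, and stood at 10.1 and 10.03 TPM in UCK2 shRNA libraries, against 17.6 and 14.7 TPM in control libraries. Both UCK2 shRNA libraries were below both control libraries on either scale, and their means were 10.1 ± 0.0559 TPM in UCK2 shRNA libraries and 16.1 ± 2.11 TPM in control libraries (SD, n = 2 each). SLC7A6 had a log2 difference of -0.63 (SE 0.22, 95% interval -1.15 to -0.10) with a limma unadjusted p of 0.0249 and an adjusted p of 0.294, and -0.40 after scaling (95% interval -0.87 to 0.07). Without control replicate 1 the limma unadjusted p of the deposited difference was 0.0683, and without UCK2 shRNA replicate 1 or 2 it was 0.119 and 0.123. SLC7A6 overlaps SLC7A6OS on the opposite strand over 17321 bases, and SLC7A6OS stood at 7.18 and 7.26 TPM in UCK2 shRNA libraries, against 9.26 and 10.8 TPM in control libraries. This overlap too is of whole gene spans, and reads from any shared exons could not be told apart if counting ignored strand.

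SLC7A7, which encodes the close relative y+LAT1, stood at 20.8 and 22.8 TPM in UCK2 shRNA libraries, against 23.1 and 28.1 TPM in control libraries, with a log2 difference of -0.22 and, scaled, 0.01. It thus differed little from the median of all genes. SLC7A1, the cationic amino acid carrier CAT1, needs no heavy chain and stood at 8.77 and 12.8 TPM, against 12.1 and 9.36 TPM. Its groups overlapped. The share of SLC7A6 in its family was 21.6% and 19.5% in UCK2 shRNA libraries, against 28.6% and 25.6% in control libraries, while that of SLC7A7 was 44.4% and 44.2%, against 37.4% and 49.0%. The shares of SLC7A6 did not overlap, and those of SLC7A7 did.

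The heavy chain SLC3A2 stood at 261 and 299.7 TPM in UCK2 shRNA libraries, against 312 and 333 TPM in control libraries, with a scaled log2 difference of 0.04. Its light chain SLC7A5 stood at 51.7 and 46.8 TPM, against 65.9 and 53.6 TPM, and was -0.03 after scaling. The ratio of SLC7A5 to SLC7A6 was 5.12 and 4.67 in UCK2 shRNA libraries, against 3.74 and 3.66 in control libraries, without overlap. With SLC7A5 near 0 after scaling, this ratio mostly restates the values of SLC7A6. The cystine exchanger SLC7A11 stood at 44.4 and 83.6 TPM, against 71.4 and 31.0 TPM, so its groups overlapped, with UCK2 shRNA replicate 2 above replicate 1 and control replicate 1 above replicate 2, as for SLC38A2. SLC3A1, the heavy chain of the cystine and dibasic amino acid exchanger, stood at 9.40 and 7.90 TPM, against 14.3 and 7.71 TPM. TXNIP, which promotes removal of GLUT1 from the cell surface, stood at 3.45 and 11.3 TPM in UCK2 shRNA libraries, against 4.84 and 4.48 TPM in control libraries, and PDZK1IP1, an activator of the renal glucose carrier SLC5A2, at 8.14 and 8.68 TPM, against 7.31 and 11.2 TPM. Both overlapped between groups. TMEM27, a partner of the renal carrier SLC6A19, reached at most 0.521 TPM. Of the 7 partners tested, 0 passed an adjusted p of 0.05 in limma, and at an unadjusted p under 0.05 BSG was the 1 lower, beside 14.0% of all genes.

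In SLC6, the family of sodium- and chloride-dependent carriers, creatine and taurine uptake led. SLC6A8 (chrX:153688099-153696593, hg38, plus strand), the creatine carrier, stood at 179 and 163 TPM in UCK2 shRNA libraries, against 227 and 223 TPM in control libraries. The groups were apart as deposited, with means of 171 ± 11.7 TPM in UCK2 shRNA libraries and 225 ± 2.79 TPM in control libraries (SD, n = 2 each). SLC6A8 had a log2 difference of -0.39 (SE 0.15, 95% interval -0.74 to -0.05, limma unadjusted p = 0.0315, adjusted p = 0.297), and -0.15 after scaling (95% interval -0.61 to 0.30), where the groups overlapped. Without control replicate 1 or 2, the limma unadjusted p as deposited was 0.0983 and 0.0813, and without UCK2 shRNA replicate 2 it was 0.123. SLC6A6, the taurine carrier, stood at 68.0 and 51.4 TPM, against 73.7 and 63.3 TPM, with a scaled log2 difference of 0.03. SLC6A12, the betaine and GABA carrier of liver and kidney, stood at 9.12 and 4.67 TPM, against 7.93 and 7.15 TPM. SLC6A9, the glycine carrier GlyT1, had the widest gap between libraries of a group on the scaled log2 scale, at 2.44 and 9.37 TPM in UCK2 shRNA libraries, against 4.98 and 4.13 TPM in control libraries. Its UCK2 shRNA libraries lay on either side of the controls.

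The SLC36 and the facilitative SLC43 carriers were expressed at lower levels. SLC36A4, which carries proline and tryptophan, stood at 21.3 and 24.4 TPM in UCK2 shRNA libraries, against 30.6 and 21.8 TPM in control libraries. SLC36A1, the lysosomal carrier PAT1, stood at 6.80 and 5.43 TPM, against 7.89 and 8.19 TPM, with a scaled log2 difference of -0.14. SLC36A4 overlapped between groups, and SLC36A1 did so after scaling. SLC43A2, which encodes LAT4 for branched-chain amino acids and other large neutral ones, stood at 23.2 and 18.7 TPM in UCK2 shRNA libraries, against 27.6 and 30.7 TPM in control libraries. Its log2 difference was -0.46 (SE 0.20, 95% interval -0.94 to 0.02, limma adjusted p = 0.337), and -0.23 after scaling. SLC43A1, which encodes LAT3 for the same kind of substrate, stood at 9.23 and 8.96 TPM, against 10.7 and 10.8 TPM, and was -0.00 after scaling. SLC43A3, a carrier of purine nucleobases, stood at 5.04 and 7.66 TPM, against 4.84 and 6.41 TPM. Its groups overlapped.

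The carriers linked to ATF4 in the literature on amino acid starvation were listed as SLC1A4, SLC1A5, SLC6A9, SLC7A1, SLC7A3 and SLC38A2, of which SLC7A3 was below the filter. None of the 5 tested passed an adjusted p of 0.05 in limma, and none had an unadjusted p under 0.05 on either scale. Their median log2 difference was 0.00 as deposited, against -0.22 over all genes, and 0.22 after scaling, against -0.01. After scaling all 5 were highest in UCK2 shRNA replicate 2, the library that was highest for 30.0% of all genes. For SLC1A5 this was by a narrow gap, at 225 TPM against 222 TPM in control replicate 2. The median scaled deviation of the 5 from the mean of the gene was -0.05 and 0.36 log2 units in UCK2 shRNA libraries, against -0.14 and -0.17 in control libraries. UCK2 shRNA replicate 1 was therefore closer to the control libraries than to UCK2 shRNA replicate 2. ASNS, the asparagine synthetase that ATF4 also induces, was highest in the same library, at 44.0 and 96.6 TPM in UCK2 shRNA libraries, against 50.1 and 37.1 TPM in control libraries. It is named for this order after its values were seen. ASNS is 1 of 10 tested genes for the first metabolic steps of these solutes. After scaling, UCK2 shRNA replicate 2 was highest for 3 of those 10 and lowest for 6. Among the 7 tested partners of the carriers, that library was highest for 2 and lowest for 2, SLC7A5 being among the latter. ATF4 itself was not analysed here.

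**Figure D4:**
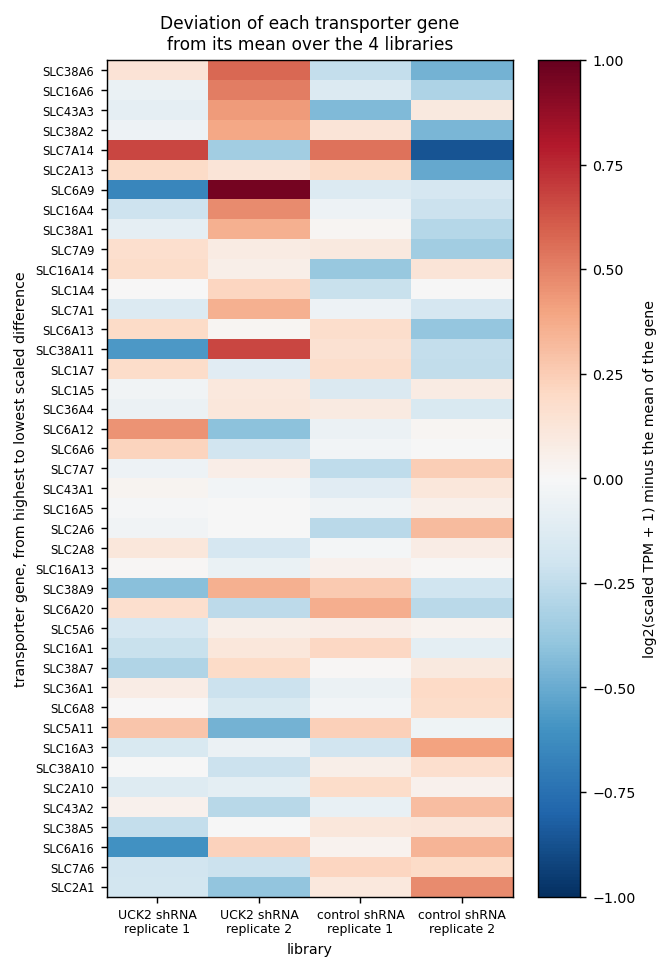
Deviation of log2(scaled TPM + 1) from the mean of each gene, for the 42 transporter genes tested (down the page, from highest to lowest scaled difference) in each library (across, UCK2 shRNA at the left). SLC6A9 reaches 0.95 in UCK2 shRNA replicate 2 and -0.65 in UCK2 shRNA replicate 1, while SLC2A1 and SLC7A6 are below their mean in both UCK2 shRNA libraries.

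Of the carriers linked to hypoxia, SLC2A1 and SLC16A3 were tested and SLC2A3 was not. Both had log2 differences below 0 on either scale, with medians of -0.63 as deposited and -0.39 scaled, and after scaling both were highest in control replicate 2, the library that was highest for 35.4% of all genes. The ratio of SLC2A1 to SLC16A3 was 0.355 and 0.287 in UCK2 shRNA libraries, against 0.448 and 0.382 in control libraries. The groups did not overlap in that ratio, which reuses the values of both genes given above. Carriers enriched in liver were close to absent. Of SLC1A2, SLC2A2, SLC2A9, SLC6A12, SLC7A2, SLC38A3 and SLC38A4, SLC6A12 was the 1 above the filter, and the others reached at most 1.19 TPM, in SLC7A2 in control replicate 1. In a bulk RNA sample, fewer cells of a type and less RNA per cell cannot be told apart.

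Genes around the carriers were read as lists. Of 14 tested genes of amino acid sensing, 0 passed an adjusted p of 0.05 in limma, and 3, LAMTOR4, LAMTOR2 and LAMTOR1, were lower at an unadjusted p under 0.05, beside 14.0% of all genes, a count of 0 after scaling. Their median log2 difference was -0.24 as deposited and -0.04 scaled. The most abundant, LAMTOR4 and LAMTOR2 of the complex that anchors mTORC1 to lysosomes, stood at 355 and 318 TPM in UCK2 shRNA libraries, against 428 and 453 TPM, and at 292 and 256 TPM, against 354 and 377 TPM in control libraries. Of 10 tested genes for the first metabolic steps of these solutes, 0 passed, with a median of -0.33 as deposited and -0.09 scaled. LDHB and LDHA, the lactate dehydrogenase subunits, were the most abundant. LDHB stood at 822 and 789.7 TPM in UCK2 shRNA libraries, against 1176 and 880.4 TPM, and LDHA at 573 and 411 TPM, against 659.6 and 658 TPM in control libraries. At an unadjusted p under 0.05 GLUL, the glutamine synthetase, was the 1 lower as deposited, beside 14.0% of all genes, at 88.5 and 69.0 TPM in UCK2 shRNA libraries, against 122 and 126 TPM in control libraries. After scaling ASNS was the 1 higher, beside 3.97% of all genes, with a log2 difference of 0.82 (95% interval 0.08 to 1.56), and LAMTOR1, GLUL and ASNS are named after their values were seen. Of the transporter genes tested, 22 overlap another gene of the table, 19 of them on the opposite strand, so that counting without strand could add reads to them.

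Across the 42 genes, the library that was highest after scaling was UCK2 shRNA replicate 1 for 10, UCK2 shRNA replicate 2 for 14, control replicate 1 for 6 and control replicate 2 for 12. Among all genes tested these shares were 14.8%, 30.0%, 19.9% and 35.4%. In SLC38, UCK2 shRNA replicate 2 was highest for 6 of 8 tested genes, and UCK2 shRNA replicate 1 was highest for 0. Most SLC38 genes also differed more between the 2 UCK2 shRNA libraries than between the groups, though SLC38A6, SLC38A10 and SLC38A5 did not. This family is singled out here after its values were seen.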

How the data were processed

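RNA of 4 MHCC-97H libraries was sequenced, per the labels. The table that the authors deposited holds TPM per gene on the hg38 build, with symbols and biotypes. Tools listed in the submitters' processing notes, with no role, are edgeR, DESeq, HTSeq and TopHat2 2.0.14. Because TPM carries no read totals, the depth is unknown and counting intervals are left out. Not analysed here were mitochondrially encoded genes and the coding genes of chromosomes 21 and 22.

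Groups follow the titles. Genes averaging at least 1 TPM were tested on log2(TPM + 1) by limma 3.58.1 (R 4.3.3; lmFit and trended eBayes on 2 residual degrees of freedom), two-sided. P-values were adjusted over the 14038 genes by the method of Benjamini and Hochberg, with a threshold of 0.05. The pseudocount of 1 understates differences of low genes. Median-ratio scaling over the same genes used factors of 0.915 and 0.925 for UCK2 shRNA and 1.18 and 1.00 for control libraries. Identical values above 0 were found in 0 genes for every pair of libraries. The fit was run on simulated data with the same spread for every gene and no difference in scale between groups. That run therefore says nothing about the scale difference between these groups. The transporter genes, the gene lists and the markers were chosen with earlier results of these data known. Named genes are UCK2, the 3 most abundant tested members of each family, those with an unadjusted p under 0.05, the 4 largest scaled differences in each direction at a mean of at least 5 TPM, and list members. Alternatives were other scalings, pseudocounts, filters and variance models, the replicate block and each library left out. Promoter sequences are from RefSeq (GRCh38.p14), with 67 of the 89 genes matched by symbol. Figures were drawn with matplotlib 3.10.9.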

Additional observations from a re-analysis of the deposited data

How the results depend on the processing

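With 2 libraries a group, a TPM scale that differs between groups and no depth, few differences can be settled here, and the cause was not tested for any change below. The count of all genes at an adjusted p under 0.05 in limma, 0 as deposited, was 9 with median-ratio scaling, 8 with quantile normalization and 39 with the replicate number as a block (replicate block), or 121 with block and scaling. Leaving out a library gave 0 to 350, with 350 without control replicate 1 and 53 without control replicate 2, or 23 and 18 with scaling. The replicate numbers were not taken to pair the libraries: with 2 pairs, deviations of same-numbered libraries correlated at -0.21 over all genes and 0.11 over the 42 transporter genes, and the labels name no shared batch. The crossed pairing, added after seeing the data like the scaled leave-outs, called 727 genes, 1 of them a transporter gene, SLC2A1, or 13 with scaling. Transporter genes higher at an unadjusted p under 0.05, 0 as deposited, numbered 1 with scaling, quantile normalization, rescaling that leaves out the 50 most abundant genes, block and scaling, or the crossed pairing, 2 with crossed pairing and scaling, and 0 to 3 with a library left out. Transporter genes lower, 5 as deposited, numbered 1 with scaling, quantile normalization, rescaling without the 50 genes, the replicate block, or crossed pairing and scaling, 2 with eBayes without trend, 0 with block and scaling, and 0 to 6 with a library left out. In the unscaled crossed pairing the limma adjusted p of SLC2A1 was 0.0165, and with scaling it was 0.190. That pairing was chosen after seeing the data, so neither value adds support. Without control replicate 1 the deposited log2 difference of SLC2A1 was -0.88. Leaving out a library leaves 1 in its group, which is then assumed to vary like the other group, so these fits say little about stability. The median log2 difference of the transporter genes, -0.22, was 0.005722 with scaling alone or with either block, -0.0291 with quantile normalization, 0.106 without the 50 genes, -0.03595 with no filter, and -0.3353 to 0.02317 with a library left out. The scaled leave-outs among these gave 0.02317 and -0.02108 without UCK2 shRNA replicates 1 and 2, and -0.006291 and -0.02045 without control replicates 1 and 2.

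Single genes near 0 turned sign. With scaling, alone or with the block, SLC1A7 was 0.072, SLC6A6 0.0336, SLC36A4 0.0585, SLC6A12 0.0392, SLC7A1 0.22, SLC7A7 0.0119 and SLC1A5 0.0656. With quantile normalization SLC1A7 was 0.10, SLC6A6 0.16, SLC36A4 0.0746, SLC7A1 0.17, SLC7A7 0.045, SLC16A5 0.15 and SLC1A5 0.22. Without the 50 most abundant genes SLC1A7 was 0.17, SLC6A6 0.14, SLC2A8 0.0465, SLC2A6 0.057, SLC43A1 0.10, SLC36A4 0.16, SLC6A12 0.13, SLC7A1 0.32, SLC7A7 0.11, SLC16A5 0.0897 and SLC1A5 0.17. With a pseudocount of 5 SLC7A1 was 0.00198. With a library left out the ranges were -0.49 to 0.16 for SLC1A7, -0.12 to 0.40 for SLC43A3, -0.41 to 0.0633 for SLC36A4, -0.25 to 0.25 for SLC7A1, -0.69 to 0.91 for SLC6A9, -0.34 to 0.57 for SLC2A13, -0.25 to 0.30 for SLC38A1, -0.32 to 0.51 for SLC38A2, -0.11 to 0.12 for SLC1A4 and -0.59 to 0.25 for SLC6A12. These single-gene ranges are of the deposited scale. SLC2A1 did not turn sign, at -0.91 to -0.72 on that scale. Leaving aside the crossed pairing and the scaled leave-outs, the other 399 values of named genes kept their sign and their side of the threshold. In the added scaled leave-outs SLC16A3 also turned sign, to 0.09 without control replicate 2.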

Other observations

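Some transporter genes outside the comparisons above are given as values, named after they were seen. SLC7A14, known mainly from neurons and retina, stood at 1.75 and 0.412 TPM in UCK2 shRNA libraries, against 1.97 and 0.0107 TPM in control libraries, so replicate 1 of each group was the higher. SLC38A11, an orphan member of its family, stood at 2.60 and 7.51 TPM in UCK2 shRNA libraries, against 6.34 and 3.85 TPM in control libraries. SLC16A4 stood at 7.86 and 13.3 TPM in UCK2 shRNA libraries, against 11.4 and 8.51 TPM in control libraries. In both SLC38A11 and SLC16A4, UCK2 shRNA replicate 2 was above replicate 1 and control replicate 1 was above replicate 2, as in SLC38A2, SLC38A1 and SLC7A11.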
